A study of Homo sapiens with 21 samples.

Results

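ISL1-/- cells and PAX6-/- cells were compared when both had received the ISL1 vector, across all genes of a table of RNA read counts. The libraries were chosen by name, with 3 labelled ISL1-/- with ISL1 against 3 labelled PAX6-/- with ISL1, which is 6 of the 21 libraries in the series. All libraries came from islets differentiated from H1, a human embryonic stem cell line, that carried no targeted edit (WT) or were labelled homozygous for a knockout of ISL1, PAX6 or PDX1. Both groups received a lentivirus with ISL1-IRES2-BFP on day 11 of differentiation, and cells positive for the fluorescent protein BFP were sorted on day 18. By the labels, the ISL1-/- cells thus carried the vector's copy of the gene that they lack. The same 2 knockouts with a BFP control vector, 3 libraries each, gave a second comparison in other libraries, and 2 libraries of WT with ISL1 gave a level for reference. The labels do not say whether a knockout line is 1 clone or several. They call the replicates biological without naming separate cultures, so p-values measure the spread between these samples. Differences are ISL1-/- minus PAX6-/- throughout, and replicates carry the numbers of the labels.

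ISL1 is a LIM-homeodomain transcription factor that endocrine cells of the pancreas express from the time they arise, and PAX6 is a transcription factor with a paired domain and a homeodomain that is expressed in the same cells. Both are known as activators of hormone genes, including the glucagon gene, and loss of PAX6 in the developing islet is known for a rise of cells that express ghrelin at the cost of cells that express insulin and glucagon. Homeodomains typically recognise DNA with the core letters TAAT.

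The promoters of 5 genes that the results turn on are shown first, from 250 bases before to 50 bases after the start of transcription, 5′ to 3′ on the gene's strand, as RefSeq gives them on GRCh38.p14. GCG encodes glucagon (chr2:162152198-162152497, minus strand). G6PC2 encodes a glucose-6-phosphatase of islet cells (chr2:168901041-168901340, plus strand). GHRL encodes ghrelin (chr3:10292898-10293197, minus strand). In these 3 the letters TAAT, searched on both strands as TAAT and ATTA, are in capitals.
GCG: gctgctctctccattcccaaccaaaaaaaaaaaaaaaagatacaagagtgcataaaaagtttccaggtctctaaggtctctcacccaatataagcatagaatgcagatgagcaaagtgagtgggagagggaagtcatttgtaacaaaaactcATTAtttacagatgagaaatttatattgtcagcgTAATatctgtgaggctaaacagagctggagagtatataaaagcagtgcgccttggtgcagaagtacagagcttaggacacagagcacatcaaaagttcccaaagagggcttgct
G6PC2: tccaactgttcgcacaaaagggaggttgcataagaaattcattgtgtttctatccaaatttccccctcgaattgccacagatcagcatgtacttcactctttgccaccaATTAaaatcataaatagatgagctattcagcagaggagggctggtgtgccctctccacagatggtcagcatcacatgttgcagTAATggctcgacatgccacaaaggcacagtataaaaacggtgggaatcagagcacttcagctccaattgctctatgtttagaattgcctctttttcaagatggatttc
GHRL: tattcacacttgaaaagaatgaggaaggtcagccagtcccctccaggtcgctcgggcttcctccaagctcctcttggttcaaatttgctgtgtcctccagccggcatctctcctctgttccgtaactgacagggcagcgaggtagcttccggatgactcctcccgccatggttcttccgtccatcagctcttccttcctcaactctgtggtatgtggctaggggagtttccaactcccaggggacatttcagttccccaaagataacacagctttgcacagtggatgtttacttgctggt
The windows of GCG and G6PC2 hold 2 matches each and that of GHRL holds 0. Of all 35116 promoters in the RefSeq table, 50.2% hold a match, as do 40.3% of the 20869 that belong to genes tested and 43.1% of those of both the higher and the lower genes. A match describes the letters and does not by itself show a binding site, and binding was not tested. The other 2 promoters belong to genes that were on in one knockout and near 0 in the other, CHCHD2 (chr7:56106427-56106726, minus strand), which encodes a small mitochondrial protein, and CAT (chr11:34438684-34438983, plus strand), which encodes catalase. In these the CG dinucleotides are in capitals.
CHCHD2: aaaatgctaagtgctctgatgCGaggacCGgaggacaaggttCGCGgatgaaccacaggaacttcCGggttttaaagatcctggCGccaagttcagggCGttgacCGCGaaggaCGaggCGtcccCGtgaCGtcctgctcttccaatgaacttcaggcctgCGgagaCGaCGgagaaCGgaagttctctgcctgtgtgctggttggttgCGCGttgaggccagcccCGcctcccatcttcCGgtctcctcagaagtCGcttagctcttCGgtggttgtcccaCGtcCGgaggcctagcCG
CAT: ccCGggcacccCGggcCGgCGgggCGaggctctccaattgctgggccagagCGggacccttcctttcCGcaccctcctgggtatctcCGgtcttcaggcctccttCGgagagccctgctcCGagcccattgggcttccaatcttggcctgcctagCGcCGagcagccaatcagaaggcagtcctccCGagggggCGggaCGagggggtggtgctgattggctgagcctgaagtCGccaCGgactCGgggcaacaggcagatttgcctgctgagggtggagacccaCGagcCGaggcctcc
The CHCHD2 window holds 26 CG and the CAT window 20, where the median promoter of all 35116 holds 14 and that of the genes tested holds 23. A count of 20 or more is found in 41.2% of all promoters and in 58.2% of those of the genes tested. The windows of GCG, G6PC2 and GHRL hold 2, 4 and 8.

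The 6 libraries held from 46.9 to 56.8 M counts, and 1 of them stood apart. PAX6-/- replicate 3 correlated with the other 5 at a Pearson r of 0.926 to 0.942 (log2 CPM across genes), while those 5 correlated with each other at 0.973 to 0.988. Mitochondrial genes took 3.16% of its counts and from 1.39% to 1.87% in the others. It had 3133 genes more than 2-fold above all other 5 libraries and 3693 more than 2-fold below, where each of the others had 30 to 194 above and 78 to 195 below. Lists of known genes moved with it. Its islet hormones summed to 18540 CPM (counts per 1 M of the TMM-scaled library) against 2938 to 7908 in the others, and its pancreatic progenitor genes to 1221 CPM against 2016 to 2673. For many results below, values are given with and without this library.

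ISL1 had 71.6, 85.1 and 96.8 CPM in ISL1-/- and 166, 126 and 356 CPM in PAX6-/-, replicates 1 to 3. The groups did not overlap (log2 fold change -1.35, SE 0.36), but the difference did not pass edgeR's quasi-likelihood test with Benjamini-Hochberg adjustment (adjusted p 0.0554, and 0.353 without PAX6-/- replicate 3, where the fold change was -0.79). Without the ISL1 vector, ISL1 was at 76.9 CPM ± 4.79 (SD, n = 3) in ISL1-/- with BFP. This mean lay inside the range of the ISL1-/- libraries with the ISL1 vector. In PAX6-/- the mean of ISL1 was 192 CPM with BFP and 216 CPM with the ISL1 vector (146 CPM without replicate 3). In WT it was 413 CPM with BFP and 349 CPM with the ISL1 vector. PAX6 had 83.9, 86.7 and 144 CPM in ISL1-/- and 124, 94.9 and 318 CPM in PAX6-/-, groups that overlapped (log2 fold change -0.77, adjusted p 0.396). PDX1, which neither line lacks, had 105, 95.6 and 114 CPM in ISL1-/- and 67, 67.9 and 85.6 CPM in PAX6-/- (log2 fold change 0.51, adjusted p 0.254). Reads from a gene that is edited but still transcribed count as before, so these values check neither knockout. ISL1 counts of the 2 vectors overlapped within each of these genotypes, so they do not show the vector's transcript. The genotypes and vectors are as labelled.

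Of 25884 genes tested, 590 differed between the knockouts at an adjusted p under 0.05, which is 2.28%. In ISL1-/- 220 were higher (0.85%) and 370 lower (1.43%). This balance moved with the libraries fitted and the tool, at 760 higher and 636 lower without PAX6-/- replicate 3 and PDX1-/- with ISL1 replicate 4 and at 1319 and 1443 with limma's voom and quality weights. In this comparison 3746 genes (14.5%) had an unadjusted p under 0.05. All but 1 of the 590 had no overlap between the 3 and 3 libraries, as did 19.8% of all genes tested (10.3% higher and 9.54% lower). Without PAX6-/- replicate 3 the count was 362 of 25691 genes (1.41%), 157 higher (0.611%) and 205 lower (0.798%). Both fits called 321 genes, 129 higher and 192 lower, all in the same direction, and none of the 590 changed sign without that library. The median log2 fold change of the higher genes was 1.78 with and 1.61 without it, and that of the lower genes -2.04 and -1.65. Over all genes tested the median was -0.06 and -0.00. The count differed with other libraries left out too. It was 299, 265 and 303 without ISL1-/- replicates 1, 2 and 3 and 980 without PAX6-/- replicate 2. It was 1113 without PDX1-/- with ISL1 replicate 4, a library outside the comparison that enters the shared estimate of the spread. In all 6 fits that each left out 1 compared library 223 of the 590 were called, 91 higher and 132 lower. Protein-coding genes made up 201 of the 220 higher genes and 246 of the 370 lower genes.

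**Figure D1:**
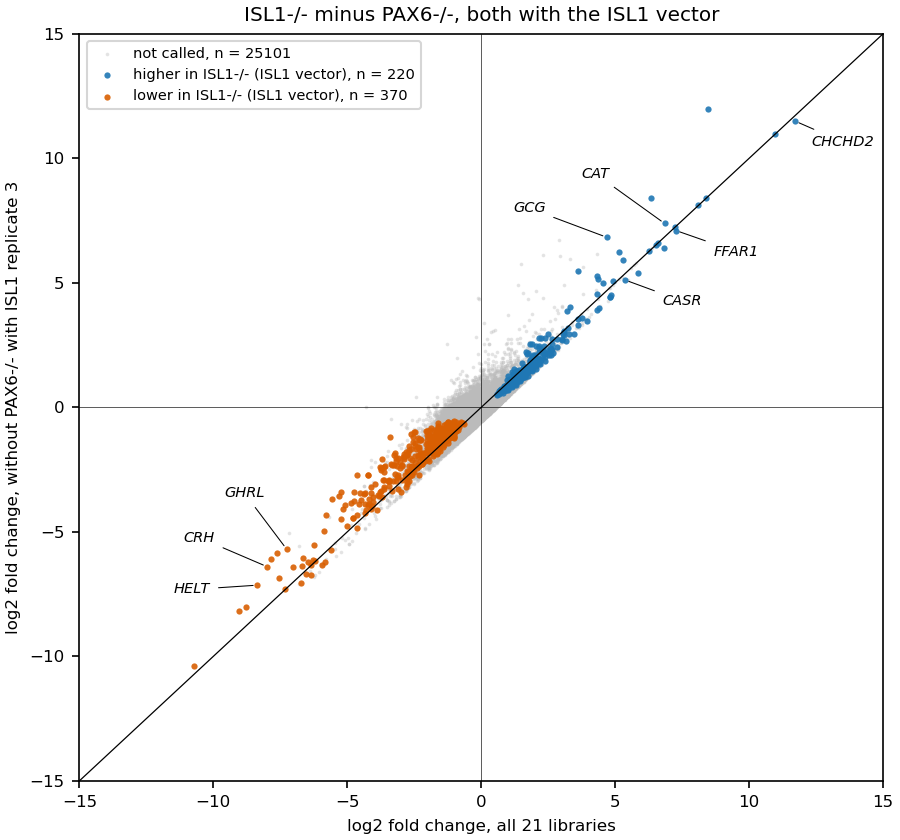
Log2 fold change of each gene (ISL1-/- minus PAX6-/-, ISL1 vector) in the fit of all 21 libraries (x axis) and without PAX6-/- replicate 3 (y axis), with the line of equal values. Blue points are the 220 genes called higher in ISL1-/-, orange points the 370 called lower, and none of these lies on opposite sides of 0 on the 2 axes.

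Among the 7 islet hormone genes 1 was higher and 1 lower in ISL1-/-, where 0.85% of all genes were higher and 1.43% lower. GCG (chromosome 2, 162142882 to 162152404, minus strand) was at 2197, 2689 and 5362 CPM in ISL1-/- and at 32, 28.1 and 339 CPM in PAX6-/-. Every ISL1-/- library lay above every PAX6-/- library, and the highest PAX6-/- value was that of replicate 3. The log2 fold change was 4.68 (SE 0.94, adjusted p 0.0112), and 6.83 without replicate 3 (adjusted p 0.000416). The call remained with each of the 6 libraries left out (adjusted p up to 0.0436) and was lost in a fit of only these 6 libraries (0.165), while DESeq2 gave no adjusted p for GCG. WT with ISL1 had 32764 CPM ± 2266 (SD, n = 2), above both knockouts.

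GHRL (chromosome 3, 10285666 to 10292947, minus strand) went the other way. It had 35.8, 37.3 and 55 CPM in ISL1-/- and 2481, 1933 and 15335 CPM in PAX6-/-. All PAX6-/- libraries were high, replicate 3 most of all, and WT with ISL1 was at 128 CPM ± 2.12 (SD, n = 2), nearer to ISL1-/-. The log2 fold change was -7.27 (SE 0.68, adjusted p 1.12e-05) and -5.69 without replicate 3 (adjusted p 8.28e-09), and the call remained in every alternative run. GHRL overlaps its antisense gene GHRLOS, which had a log2 fold change of -1.71 (adjusted p 0.0766), and since no source says that counting was by strand, reads of the pair cannot be told apart.

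The other 5 hormone genes did not pass the test. INS, the insulin gene, had 1894, 2352 and 2472 CPM in ISL1-/- and 699, 970 and 2787 CPM in PAX6-/-, so that replicate 3 alone overlapped the ISL1-/- range (log2 fold change 0.59, adjusted p 0.771, and 1.42 and 0.804 without it). SST, which encodes somatostatin, had 4.15, 5.82 and 11.5 CPM in ISL1-/- and 8.57, 6.14 and 71.7 CPM in PAX6-/-, a log2 fold change of -2.01 with and -0.04 without replicate 3. PPY, IAPP and PYY stayed under 7 CPM in all 6 libraries. Per kilobase of exon the order of the mean levels in ISL1-/- was INS (3414 CPM per kb, range 2887 to 3768), GCG (1436, range 924 to 2255), GHRL (20.6, range 17.3 to 26.5) and SST (11.8, range 6.83 to 19). The ranges of GHRL and SST overlapped. In PAX6-/- it was GHRL (3175, range 932 to 7397), INS (2264, range 1066 to 4248), GCG (55.9, range 11.8 to 142) and SST (47.5, range 10.1 to 118), with overlapping ranges within each of the pairs GHRL and INS, and GCG and SST. Without replicate 3 INS came first in PAX6-/-, at 1272 CPM per kb against 1065 for GHRL, again with overlapping ranges. In sorted cells read in bulk, fewer cells of a type and less RNA per cell cannot be told apart.

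**Figure D2:**
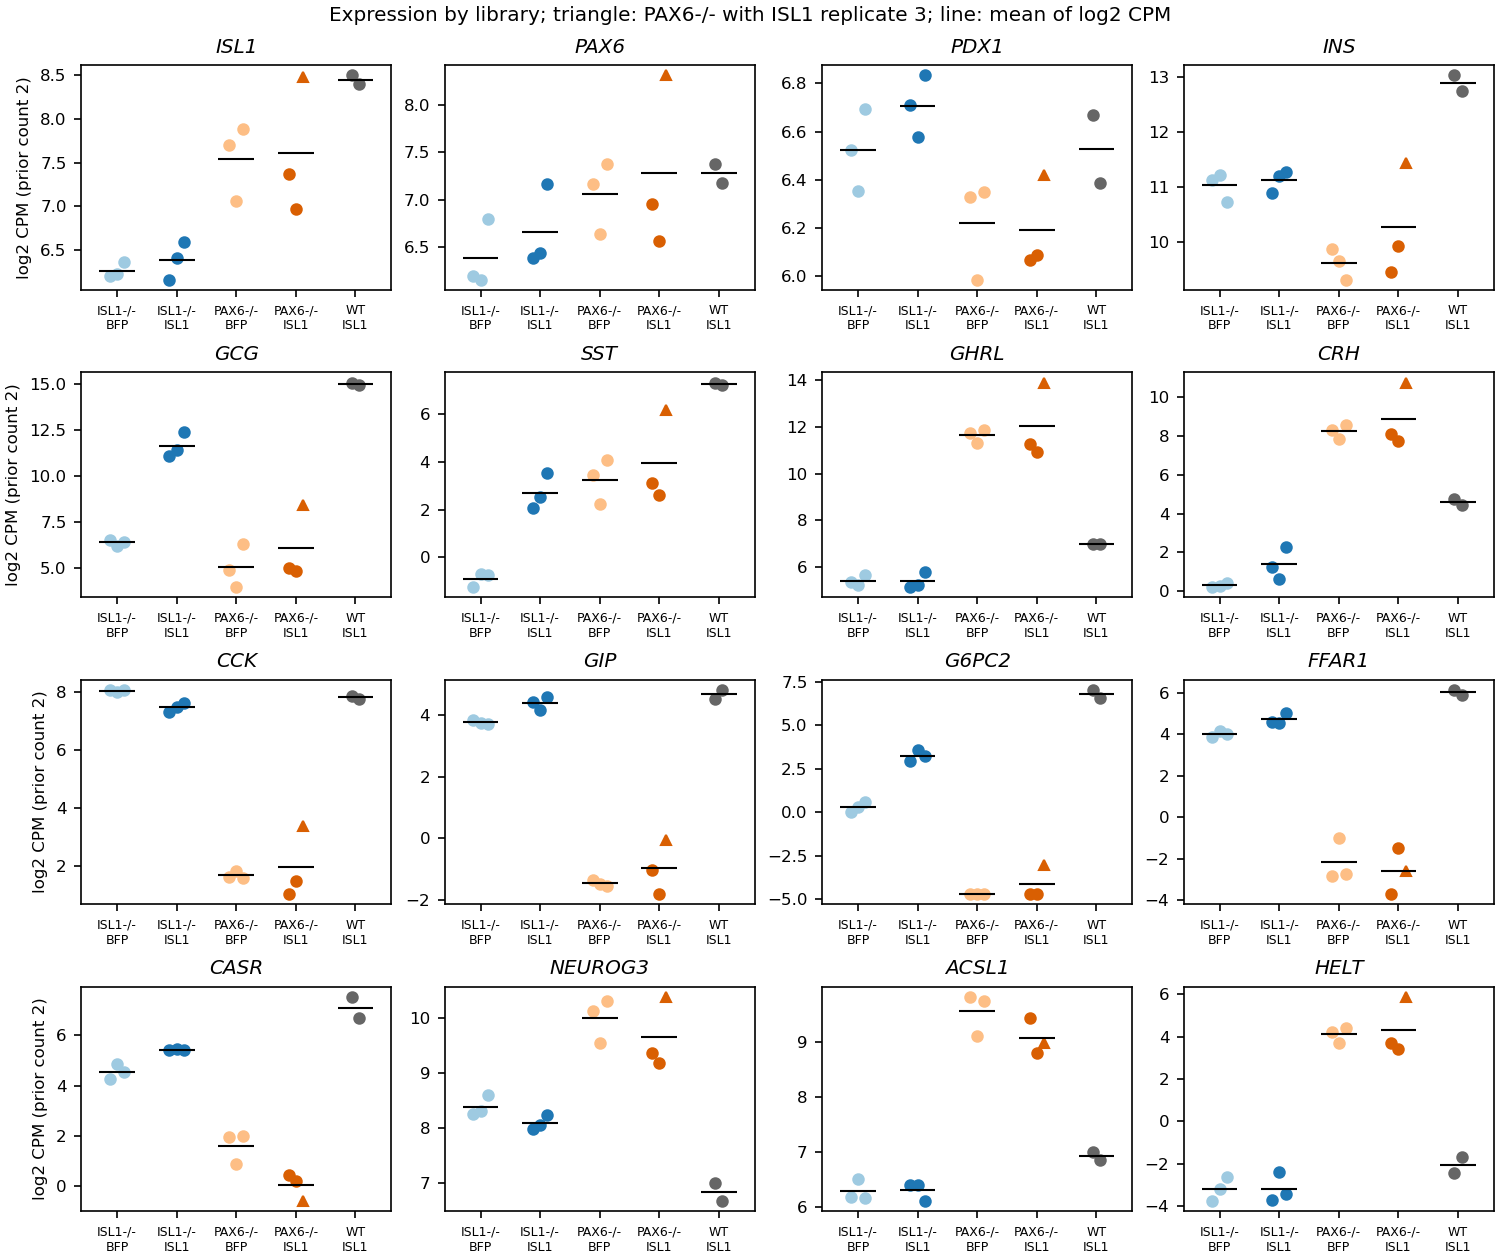
Log2 CPM (prior count 2) of 16 genes in ISL1-/- and PAX6-/- with each vector and in WT with ISL1, 1 point per library, with the mean as a line and PAX6-/- with ISL1 replicate 3 as a triangle. GCG, CCK, GIP, G6PC2, FFAR1 and CASR are high in all ISL1-/- libraries with the ISL1 vector, and GHRL, CRH, NEUROG3, ACSL1 and HELT in all PAX6-/- libraries.

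Of 21 gut and other peptide genes tested, 2 were higher and 2 lower in ISL1-/-, and 4 and 2 without PAX6-/- replicate 3. Among all genes 0.85% were higher and 1.43% lower with that replicate. CCK, which encodes cholecystokinin, had 158, 177 and 196 CPM in ISL1-/- and 2.02, 2.72 and 10.3 CPM in PAX6-/-. GIP, an incretin gene, had 21.3, 17.8 and 23.7 CPM in ISL1-/- and 0.446, 0.247 and 0.923 CPM in PAX6-/-. For both the groups were far apart, and WT with ISL1, at 224 CPM ± 12.4 for CCK and 25.6 ± 3.73 for GIP (SD, n = 2 each), sat beside ISL1-/-. The log2 fold changes were 5.14 (adjusted p 0.00583) for CCK and 5.30 (adjusted p 0.00877) for GIP. Without PAX6-/- replicate 3 they were 6.22 (adjusted p 0.00561) for CCK and 5.93 (adjusted p 0.0245) for GIP. CRH, which encodes corticotropin-releasing hormone, had 2.34, 1.51 and 4.9 CPM in ISL1-/- and 278, 215 and 1738 CPM in PAX6-/-. Its log2 fold change was -7.99 (SE 0.93, adjusted p 7.96e-05) and -6.40 without replicate 3, and WT with ISL1 lay between the knockouts at 24.5 CPM ± 3.6 (SD, n = 2). These 3 calls remained with each compared library left out. ADCYAP1, which encodes the peptide PACAP, was lower (log2 fold change -1.75, adjusted p 0.00689), a call lost without ISL1-/- replicate 2 (adjusted p 0.0506). The ADCYAP1 call was also lost in fits of only these 6 libraries (adjusted p up to 0.152). Galanin (GAL) and spexin (SPX) passed only without PAX6-/- replicate 3, with log2 fold changes of 2.19 (adjusted p 0.0462) and 1.76 (adjusted p 0.0188).

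Genes of the beta cell list were higher in ISL1-/- or did not pass. Of 20 tested, 9 were higher and 0 lower, where 0.85% of all genes were higher, and the median log2 fold change was 1.17 against -0.06 over all genes. Without PAX6-/- replicate 3 it was 6 higher and 0 lower with a median of 1.02, and from 5 (without ISL1-/- replicate 3) to 8 were higher with 1 compared library left out. Under BFP 5 were higher and 0 lower, with a median of 0.69. The summed level was 1084, 1209 and 1412 CPM in ISL1-/- and 603, 575 and 649 CPM in PAX6-/-, without overlap and with replicate 3 beside its group. For comparison, the sum of granule and processing genes in replicate 3 was above all other libraries, at 31995 CPM against 13116 to 23242.

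G6PC2 had 7.69, 11.9 and 9.38 CPM in ISL1-/- and counts of 0, 0 and 4 in PAX6-/-. Without replicate 3 it was at least 185-fold higher in ISL1-/-, against a floor of 3 counts per library, and the call remained in every alternative run (adjusted p 0.0011). WT with ISL1 had 114 CPM ± 27.5 (SD, n = 2). CASR, the calcium-sensing receptor, had 42.7, 43.3 and 42.2 CPM in ISL1-/- and 1.34, 1.13 and 0.629 CPM in PAX6-/- (log2 fold change 5.36, SE 0.63, adjusted p 8.06e-05). Here replicate 3 was the lowest of its group, and without it the log2 fold change was 5.11. NPTX2, a secreted pentraxin, had 85.7, 97.6 and 123 CPM against 25.6, 29.4 and 31.5 CPM (log2 fold change 1.82, adjusted p 0.000238). ERO1B, which oxidises cysteines during protein folding, had 272, 299 and 350 CPM against 143, 101 and 87.5 CPM (1.47, adjusted p 0.0041), and the transcription factor gene SIX3 had 2.95, 2.03 and 2.56 CPM against 0.504, 0.464 and 0.294 CPM (2.57, adjusted p 0.00191). These 5 calls remained with each compared library left out, and ERO1B was lost in a fit of only these 6 libraries (0.0937).

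The other 4 calls of the beta list were lost when single libraries were left out. The transcription factor gene NKX6-1 (log2 fold change 1.49, adjusted p 0.0225) was lost without any ISL1-/- library or PAX6-/- replicate 1 or 3 (adjusted p up to 0.105). The zinc transporter gene SLC30A8 (1.07, adjusted p 0.0217) was lost without ISL1-/- replicate 2 or 3 or PAX6-/- replicate 3 (up to 0.124). PFKFB2, an enzyme that controls glycolysis, was lost without ISL1-/- replicate 1 or 3 (up to 0.0703, from 0.018), and UCN3, which encodes urocortin 3, without any of the 6 (up to 0.118, from 0.0444). PDX1 (0.51), MAFA (0.31) and MNX1 (0.43) of the same list did not pass, at the log2 fold changes given. None of 21 glucose use genes passed.

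**Figure D3:**
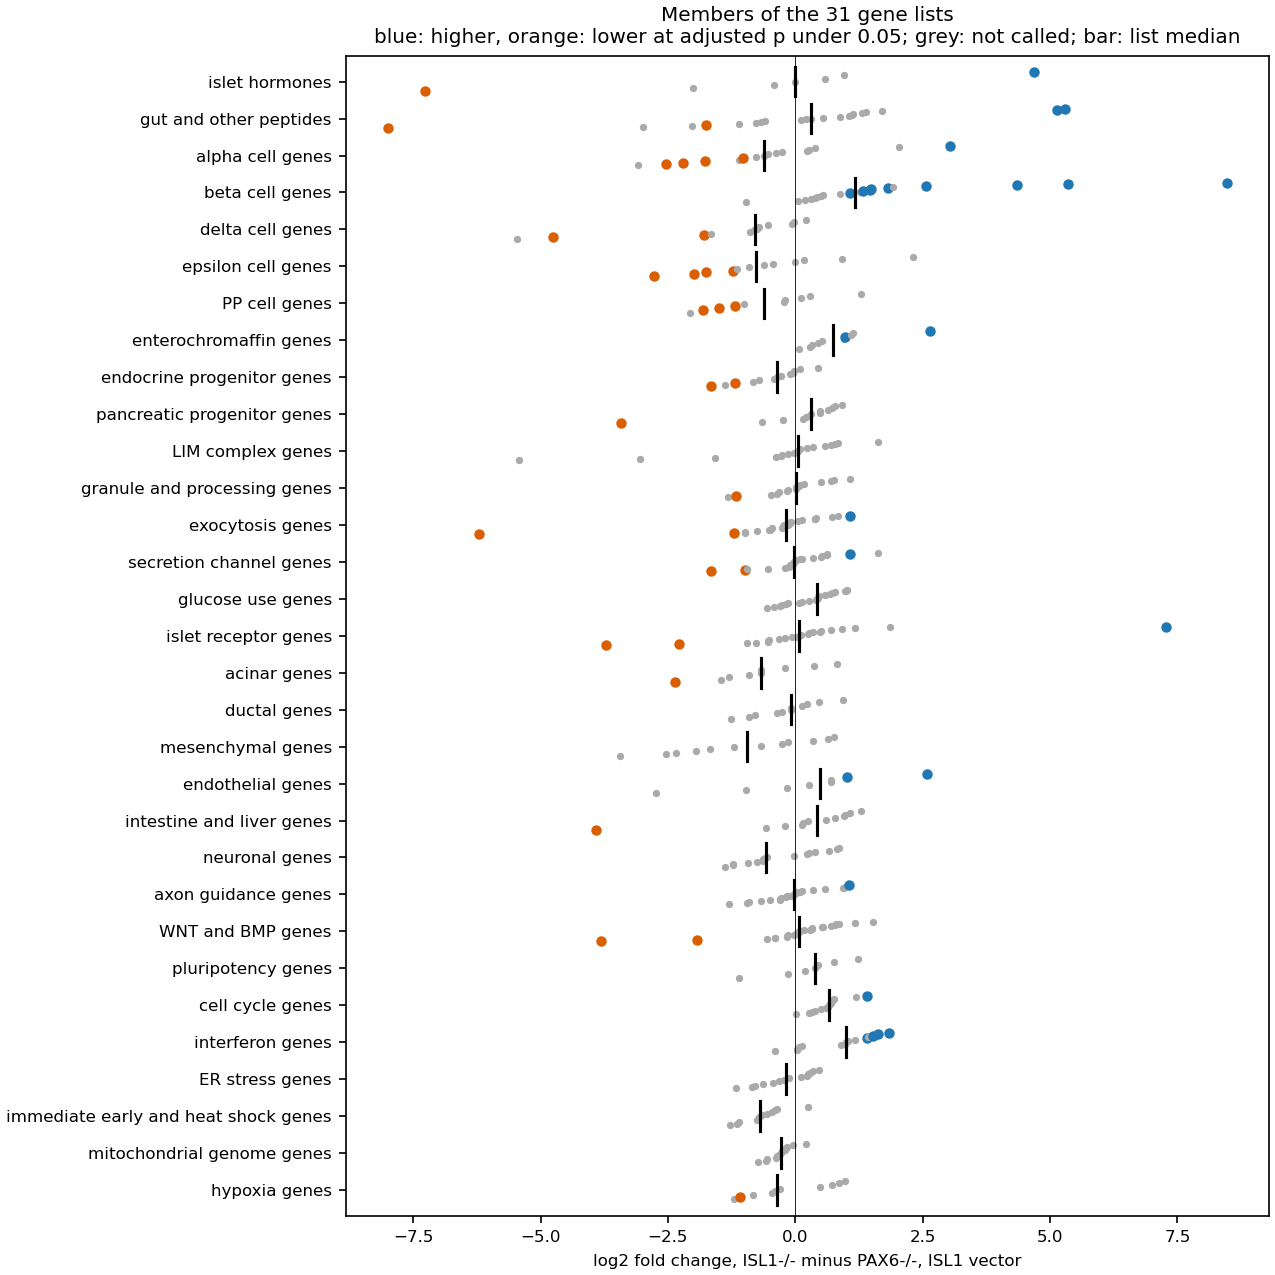
Log2 fold change (ISL1-/- minus PAX6-/-, ISL1 vector) of every tested member of the 31 gene lists, 1 point per gene, with blue for genes called higher, orange for genes called lower and a bar at the list median. All 9 calls among beta cell genes lie to the right of 0 and all 4 among epsilon cell genes to the left.

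Epsilon cells are the ghrelin cells of the islet, and genes of their list were lower in ISL1-/- or did not pass. Of 12 tested, 4 were lower and 0 higher, where 1.43% of all genes were lower, with a median log2 fold change of -0.77. Without PAX6-/- replicate 3 it was 2 lower and 0 higher with a median of -0.20, and it was 2 lower also without any 1 of the ISL1-/- libraries. Under BFP 5 were lower and 0 higher. The summed level was 858, 855 and 738 CPM in ISL1-/- and 1694, 1193 and 1934 CPM in PAX6-/-, highest in replicate 3. ACSL1, which activates long-chain fatty acids, had 84.8, 84.8 and 69.2 CPM in ISL1-/- and 691, 442 and 506 CPM in PAX6-/- (log2 fold change -2.78, adjusted p 0.00481), with replicate 3 inside its group. MBOAT4, the enzyme that acylates ghrelin, had 2.8, 2.01 and 1.93 CPM against 7.95, 6.12 and 12.6 CPM (-1.98, adjusted p 0.00195). Without replicate 3 the log2 fold changes were -2.83 for ACSL1 and -1.65 for MBOAT4. Both calls remained with each compared library left out, and MBOAT4 was lost in a fit of only these 6 libraries (0.0734). SPTSSB (-1.76, adjusted p 0.0217) and VSTM2L (-1.22, adjusted p 0.0375) were lost without any ISL1-/- library or PAX6-/- replicate 3, with adjusted p up to 0.123 and 0.206.

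The lists of the other islet cells held calls too, where 0.85% of all genes were higher and 1.43% lower. Of 18 alpha cell genes 1 was higher and 4 lower (1 and 2 without PAX6-/- replicate 3), while GCG, the alpha cell hormone, was higher. PTGER3, a prostaglandin receptor gene, had 49.7, 56.8 and 73.1 CPM in ISL1-/- and 8.3, 7.15 and 6.33 CPM in PAX6-/- (log2 fold change 3.04, SE 0.32, adjusted p 2.54e-05), a call kept with each compared library left out. Its log2 fold change was 2.95 without PAX6-/- replicate 3. LOXL4 (-2.20, adjusted p 0.0229) was lost without any ISL1-/- library or PAX6-/- replicate 1 (up to 0.118), and KCTD8 (-1.78, adjusted p 0.0142) without ISL1-/- replicate 1 or 2 or PAX6-/- replicate 3 (up to 0.092). TTR, which encodes transthyretin, had 473, 510 and 575 CPM against 1180, 857 and 6949 CPM. Its log2 fold change was -2.53 (adjusted p 0.0422) with and -0.97 (adjusted p 0.469) without PAX6-/- replicate 3, and the call was also lost without any ISL1-/- library.

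Of 12 delta cell genes 2 were lower and 0 higher, with and without PAX6-/- replicate 3. For this and the other lists below, 0.85% of all genes were higher and 1.43% lower. FFAR4, a receptor for long-chain fatty acids, had 1.11, 0.781 and 0.666 CPM in ISL1-/- and 14.5, 8.91 and 45.5 CPM in PAX6-/- (log2 fold change -4.75, SE 0.56, adjusted p 8.06e-05). CBLN4, a secreted synaptic protein, had 1.27, 0.981 and 0.756 CPM against 3.05, 4.64 and 2.71 CPM (-1.79, adjusted p 0.00602). Without PAX6-/- replicate 3 the log2 fold changes were -3.78 for FFAR4 and -1.94 for CBLN4. Both calls remained with each compared library left out, and CBLN4 was lost in a fit of only these 6 libraries (0.0961). Of 10 genes of the pancreatic polypeptide (PP) cell list 3 were lower and 0 higher, and 1 and 0 without PAX6-/- replicate 3. MEIS1, a homeodomain factor, had 34.9, 40.5 and 42.9 CPM against 95.9, 90 and 84.5 CPM (-1.19, adjusted p 0.0138), and this call was lost without ISL1-/- replicate 1 or 2 (up to 0.0889). The MEIS1 call was also lost in fits of only these 6 libraries (up to 0.193), and its log2 fold change was -1.24 without PAX6-/- replicate 3. The potassium channel regulator ABCC9 (-1.82, adjusted p 0.0423) and the synaptic adhesion gene SLITRK6 (-1.50, adjusted p 0.03) were lost without PAX6-/- replicate 1 or 3 or any ISL1-/- library (up to 0.141 and 0.136). Of 10 enterochromaffin genes, which mark serotonin cells, 2 were higher and 0 lower with and without PAX6-/- replicate 3, and none was called under BFP. DDC, which makes serotonin and dopamine from their precursors, had 302, 335 and 352 CPM against 149, 161 and 195 CPM (0.97, adjusted p 0.00842), a call lost with upper quartile scaling (0.0972) and in a fit of only these 6 libraries (0.19). SLC6A4, the serotonin transporter gene, had 3.39, 5.17 and 4.88 CPM against 0.659, 0.681 and 0.797 CPM (2.65, adjusted p 0.0138), lost without ISL1-/- replicate 2 or PAX6-/- replicate 1 (up to 0.0545).

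Receptors for fatty acids differed in opposite directions. FFAR1, through which fatty acids raise insulin release, had 24, 23.7 and 32.2 CPM in ISL1-/- and 0.0388, 0.325 and 0.126 CPM in PAX6-/-, against 65.1 CPM ± 8.29 (SD, n = 2) in WT with ISL1. Its log2 fold change was 7.27 (SE 0.80, adjusted p 4.51e-05) and 7.10 without PAX6-/- replicate 3. FFAR4, above, was lower, and FFAR3, a receptor for short-chain fatty acids, had a log2 fold change of -2.29 (adjusted p 0.0212) with and -1.29 (adjusted p 0.148) without replicate 3, also lost without any ISL1-/- library. GALR1, a galanin receptor, had 0.129, 0.183 and 0.324 CPM in ISL1-/- and 2.7, 2.55 and 3.19 CPM in PAX6-/- (-3.71, SE 0.65, adjusted p 0.00377). Without PAX6-/- replicate 3 the log2 fold change of GALR1 was -3.62. FFAR1 and GALR1 were kept with each compared library left out. In all, 1 of 23 islet receptor genes tested was higher and 2 lower, where 0.85% of all genes were higher and 1.43% lower.

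Outside the islet receptor list, the naming rule picked 3 more genes of cell surface signalling that were higher in ISL1-/-. NGFR, a receptor for neurotrophins, had 15.9, 13.2 and 29.7 CPM in ISL1-/- and 0.582, 2 and 0.315 CPM in PAX6-/- (log2 fold change 4.32, adjusted p 0.00377). CHRM4, a muscarinic acetylcholine receptor, had 11.6, 10 and 23.6 CPM against 1.07, 1.47 and 1.17 CPM (3.60, adjusted p 0.000117). NTNG1, a membrane-anchored netrin, had 16.1, 15.3 and 18 CPM against 1.67, 2.34 and 1.72 CPM (3.10, adjusted p 1.7e-05). All 3 were kept with each compared library left out and had PAX6-/- replicate 3 within or below the values of its group. Without that replicate the log2 fold changes were 3.91 for NGFR, 3.56 for CHRM4 and 3.03 for NTNG1. WT with ISL1 was near PAX6-/- for NGFR, at 1.3 CPM ± 0.023, and beyond ISL1-/- for NTNG1, at 25.6 CPM ± 5.22 (SD, n = 2 each). NGFR was lost in a fit of only these 6 libraries (adjusted p 0.0635).

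Some of the largest differences were in genes that were on in 1 knockout and at or near 0 in the other. CHCHD2 (chromosome 7, 56101573 to 56106476, minus strand) had 131, 137 and 129 CPM in ISL1-/- and 0.0776, 0.0155 and 0.021 CPM in PAX6-/-. WT with ISL1 had 0.136 CPM ± 0.0451 (SD, n = 2), so ISL1-/- stood apart from both. The log2 fold change was 11.72 (SE 0.84, adjusted p 4.99e-07) and 11.49 without PAX6-/- replicate 3. Processed copies of CHCHD2 exist elsewhere in the genome, and how multi-mapped reads were treated is not given in the sources used here. CAT (chromosome 11, 34438934 to 34472060, plus strand) had 90.5, 107 and 96.8 CPM in ISL1-/- and 0.601, 0.572 and 1.41 CPM in PAX6-/- (6.84, SE 0.39, adjusted p 3.23e-08). Without PAX6-/- replicate 3 the log2 fold change of CAT was 7.38. For CAT it was PAX6-/- that stood apart, since WT with ISL1 had 69.8 CPM ± 3.82 (SD, n = 2). The CHCHD2 and CAT promoters are the pair printed above with the CG in capitals.

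In the other direction TSPYL5, a nucleosome assembly protein family member, had 0.737, 0.565 and 0.342 CPM in ISL1-/- and 46.1, 43.3 and 11.6 CPM in PAX6-/- (log2 fold change -5.94, adjusted p 0.000105). ZNF585A, a zinc finger gene, had 0.24, 0.0499 and 0.36 CPM against 13.4, 9.48 and 8.83 CPM (-5.61, adjusted p 6.71e-06). TF, the transferrin gene and the only call among 12 intestine and liver genes, had 8.79, 6.65 and 6.63 CPM against 153, 103 and 76.3 CPM (-3.91, SE 0.28, adjusted p 4.99e-07). For these 3 genes PAX6-/- replicate 3 was the lowest of its group, and WT with ISL1, at 47.9 CPM ± 7.36, 11.4 ± 1.4 and 151 ± 5.97 (SD, n = 2 each), was at the PAX6-/- level. Without that replicate the log2 fold changes were -6.35 for TSPYL5, -5.73 for ZNF585A and -4.12 for TF. All 3 calls, and those of CHCHD2 and CAT, remained in every alternative run.

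A further group was high in PAX6-/- and low in both ISL1-/- and WT with ISL1. HELT, a basic helix-loop-helix transcription factor, had 0.0369, 0.15 and 0.054 CPM in ISL1-/- and 13, 10.8 and 59.1 CPM in PAX6-/-, against 0.209 CPM ± 0.0877 (SD, n = 2) in WT with ISL1. Its log2 fold change was -8.36 (SE 0.96, adjusted p 7.29e-05), and -7.14 without PAX6-/- replicate 3. SV2C, a protein of synaptic vesicles, had 0.0553, 0.216 and 0.054 CPM against 9.1, 7.22 and 8.62 CPM (-6.20, SE 0.62, adjusted p 1.7e-05), with WT at 0.481 CPM ± 0.0912 (SD, n = 2). Its antisense gene SV2C-AS1 was called too (-7.62, adjusted p 0.000936), and reads of the pair cannot be told apart. BMPER, a secreted regulator of BMP signalling, had 0.922, 0.781 and 0.486 CPM against 10.6, 6.53 and 13.8 CPM (-3.82, adjusted p 0.00762), a call lost without ISL1-/- replicate 2 or 3 (up to 0.0563). The naming rule also picked SHISAL2B (-5.31, adjusted p 0.00213, and -3.55 without PAX6-/- replicate 3) and ENSG00000289522, which has no symbol of its own (-3.74, adjusted p 0.000393, and -2.45). Both were high in PAX6-/- replicate 3, at 58.9 and 265 CPM, and SHISAL2B was at 6.86 CPM in WT with ISL1, the level of the other 2 PAX6-/- libraries. Both were lost in a fit of only these 6 libraries (0.0861 and 0.095).

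Endocrine progenitor genes were lower in ISL1-/- or did not pass, with 2 of 13 called lower (1 without PAX6-/- replicate 3). Their median log2 fold change was -0.36, and 1.43% of all genes were lower. NEUROG3, the transcription factor that starts endocrine differentiation, had 254, 267 and 303 CPM in ISL1-/- and 663, 584 and 1338 CPM in PAX6-/- (log2 fold change -1.65, SE 0.31, adjusted p 0.00722, and -1.19 and 0.0305 without replicate 3). It was kept with each compared library left out and lost in a fit of only these 6 libraries (0.14). ST18 (-1.19, adjusted p 0.0224) was lost without any ISL1-/- library or PAX6-/- replicate 1 or 3 (up to 0.125). NEUROD1 (-0.05), INSM1 (-0.02) and RFX6 (0.10) did not pass. Of 13 pancreatic progenitor genes only PTF1A was called as lower (-3.42, adjusted p 0.049), and its highest value, 3.86 CPM, was in PAX6-/- replicate 3. Without that library the fold change was -1.18 (adjusted p 0.646), and the call was lost without any ISL1-/- library too. None of 18 genes of LIM factors and the cofactors that bind them passed, and their median was 0.05.

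Genes of vesicle release and excitability held few calls, where 0.85% of all genes were higher and 1.43% lower. Of 26 exocytosis genes 1 was higher and 2 lower, and of 23 secretion channel genes 1 was higher and 2 lower. Besides SV2C, these were the synaptotagmins SYT7 (log2 fold change 1.08, adjusted p 0.025) and SYT16 (-1.21, adjusted p 0.0306), the KATP channel subunit ABCC8 (1.08, adjusted p 0.0441), the sodium channel SCN3A (-1.65, adjusted p 0.042) and the calcium channel subunit CACNB2 (-0.98, adjusted p 0.0246). Each of these 5 was lost without at least 4 of the 6 compared libraries in turn, with adjusted p up to 0.139 for SYT7, 0.165 for SYT16, 0.235 for ABCC8, 0.173 for SCN3A and 0.139 for CACNB2. Of 16 granule and processing genes only the carboxypeptidase gene CPE was called as lower (-1.17, adjusted p 0.0245), and it was lost without any ISL1-/- library or PAX6-/- replicate 3 (up to 0.136). Without that replicate 2 other genes of the list were higher and 0 lower, SCGN, which encodes a calcium-binding protein (1.50, adjusted p 0.0136), and VGF, which encodes a precursor of secreted peptides (1.68, adjusted p 0.0124).

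Of 15 interferon genes 4 were higher in ISL1-/- and 0 lower, where 0.85% of all genes were higher, with a median log2 fold change of 0.99 (0.88 without PAX6-/- replicate 3). The count was 2 without any 1 of the ISL1-/- libraries, and under BFP it was 4 higher and 0 lower. OAS1, an antiviral RNA sensor, had 17.6, 16.4 and 21.7 CPM in ISL1-/- and 5.28, 5.07 and 5.22 CPM in PAX6-/- (1.84, SE 0.21, adjusted p 5.25e-05). IFIT1, which binds viral RNA, had 18.9, 21.4 and 18.7 CPM against 6.65, 7.36 and 8.41 CPM (1.40, adjusted p 0.00192). In both the 3 libraries of each knockout lay close together, replicate 3 included, and both were kept with each compared library left out, while IFIT1 was lost in a fit of only these 6 libraries (0.0613). MX1 (1.53, adjusted p 0.0229) and TAP1 (1.63, adjusted p 0.0448) were lowest in PAX6-/- replicate 3, at 21 and 5.05 CPM, and were lost without it or any ISL1-/- library (up to 0.09 and 0.158), TAP1 also without PAX6-/- replicate 1. ISG15 and IFI6 passed only without replicate 3, at 1.51 (adjusted p 0.018) and 1.67 (adjusted p 0.00169). The summed level of the list in replicate 3, 2637 CPM, was above ISL1-/- (2301 to 2406), while the other 2 PAX6-/- libraries had 1408 and 1300. Its mean log2 CPM over the list, 5.06, was the lowest of the 6, against 5.97 to 6.21 in ISL1-/- and 5.23 and 5.17 in the other PAX6-/- libraries. Of 15 cell cycle genes 1 was called, E2F1 (1.41, adjusted p 0.0259), lost without any ISL1-/- library or PAX6-/- replicate 1 or 3 (up to 0.123).

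Markers of other cells the sort could hold were read next. None of 12 mesenchymal, 11 ductal, 16 neuronal or 7 pluripotency genes tested passed. Of 9 acinar genes 1 was lower (CPA1, -2.36, adjusted p 0.0437), lost without PAX6-/- replicate 3, where it stood at 21.5 CPM, or any ISL1-/- library (up to 0.364). Of 8 endothelial genes 2 were higher, KDR (2.59, adjusted p 0.0118) and ESAM (1.02, adjusted p 0.0203), and both were lost without at least 2 of the 6 libraries (up to 0.0597 and 0.119). The summed endothelial genes lay at 62.4 to 70.8 CPM in ISL1-/- and 50.6 to 72 CPM in PAX6-/-, while their mean log2 CPM was -1.39 in PAX6-/- replicate 3 and -0.19 to 0.33 in the other 5 libraries. The summed acinar genes lay at 13.7 to 17.8 CPM in ISL1-/- and 18.8 to 32.3 CPM in PAX6-/-. The summed mesenchymal genes were at 954 CPM in PAX6-/- replicate 2 and at 132 to 251 CPM in the other 5 libraries. The summed ductal, delta cell and alpha cell genes were highest in PAX6-/- replicate 3, at 3615, 1379 and 12271 CPM, against 1257 to 1467, 291 to 390 and 2850 to 3844 CPM elsewhere. As mean log2 CPM these lists were at 3.99, 2.67 and 5.82 there, against 3.77 to 3.99, 1.57 to 2.63 and 5.08 to 5.33 elsewhere. Their part in the gene differences was not tested. Among the remaining lists, 1 of 24 axon guidance genes was higher, the netrin gene NTN1 (1.06, adjusted p 0.0093), which was kept with each compared library left out and lost with no filter on low counts (0.0642) and in a fit of only these 6 libraries (0.187). Without PAX6-/- replicate 3 it was 1 higher and 1 lower, the semaphorin gene SEMA3A (-0.81, adjusted p 0.0413). Of 26 WNT and BMP genes 2 were lower, BMPER above and WNT4 (-1.92, adjusted p 0.0248), and of 10 hypoxia genes 1, the oxygen sensor EGLN3 (-1.09, adjusted p 0.0353). WNT4 and EGLN3 were lost without PAX6-/- replicate 3 or any ISL1-/- library (up to 0.171 and 0.189), EGLN3 also without PAX6-/- replicate 1. None of 14 ER stress, 12 immediate early and heat shock or 13 mitochondrial genome genes passed. Over all 31 lists, 26 of the 467 members tested were higher and 31 lower, where 0.85% of all genes were higher and 1.43% lower. Another 12 members had too few counts to be tested.

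**Figure D4:**
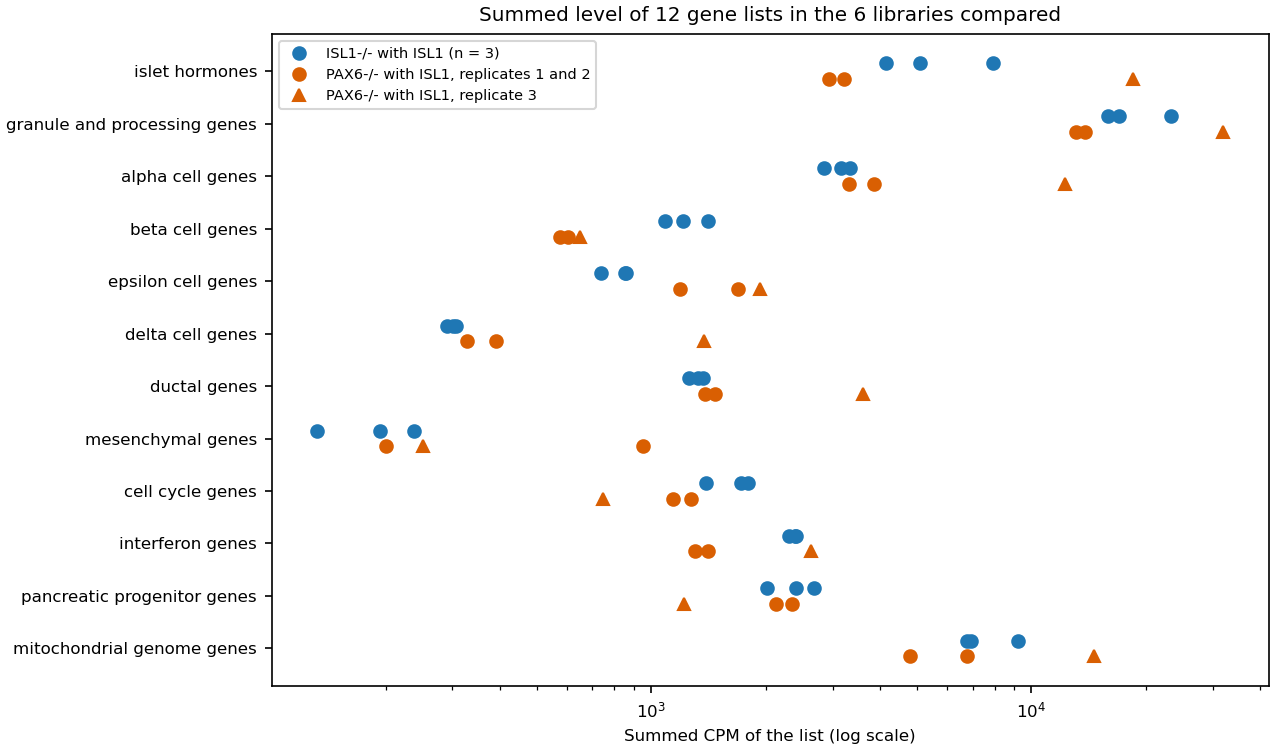
Summed CPM (log axis) of 12 gene lists in the 3 ISL1-/- libraries (blue) and the 3 PAX6-/- libraries (orange, replicate 3 as a triangle). Beta cell genes of PAX6-/- replicate 3 sit with its group at 649 CPM. Its islet hormones and its granule, alpha, epsilon, delta, ductal, interferon and mitochondrial genome genes lie above the other 5 libraries. Its pancreatic progenitor and cell cycle genes lie below them.

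The same knockouts were compared under the BFP vector, in 6 libraries that share none with those above. There 636 genes were called (2.46%), 196 higher (0.757%) and 440 lower (1.7%) in ISL1-/-. Of the 590 genes called under the ISL1 vector 337 were called under BFP in the same direction, which is 57.1% of the 590 and 53.0% of the 636. The sign was the same for 585 of the 590. That share was not computed over all genes tested, so the 585 are given without a base to compare. Across the 590 genes the fold changes under both vectors correlated at a Pearson r of 0.92, and across all 25884 genes at 0.61. The points share the knockout lines and the library method, and genes are not independent replicates. GHRL (-6.24), CRH (-8.00), HELT (-7.78), CCK (6.36), FFAR1 (6.11), CHCHD2 (13.97), CAT (6.91) and TF (-4.05) were called under both vectors and kept with each BFP library left out.

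Single genes had other values under BFP. For GCG the ISL1-/- mean was 83.5 CPM with BFP against 40.9 CPM in PAX6-/-, a log2 fold change of 1.03 (adjusted p 0.85), beside 4.68 with the ISL1 vector. SST was called lower in ISL1-/- under BFP (-4.40, adjusted p 0.00945), at a mean of 0.507 CPM against 10.8 CPM, and not under the ISL1 vector. That call was lost without any of the 3 ISL1-/- libraries with BFP (up to 0.0638). ERO1B, called under the ISL1 vector, had a log2 fold change of -0.07 under BFP. The test of the change itself passed for none of GCG, SST and ERO1B, with an adjusted p of 0.98 for each. It passed for 1 gene of 25884 (0.00386%), SLC24A4, which encodes a potassium-dependent sodium-calcium exchanger, and 608 genes (2.3%) had an unadjusted p under 0.05. SLC24A4 had 6.97, 6.57 and 7.53 CPM in ISL1-/- and 1.36, 1.02 and 1.03 CPM in PAX6-/- with the ISL1 vector, at a log2 fold change of 2.63. With BFP the means were 0.3 and 1.1 CPM, a log2 fold change of -1.87, so that the difference between the knockouts changed by 4.49 (adjusted p 0.00422).

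**Figure D5:**
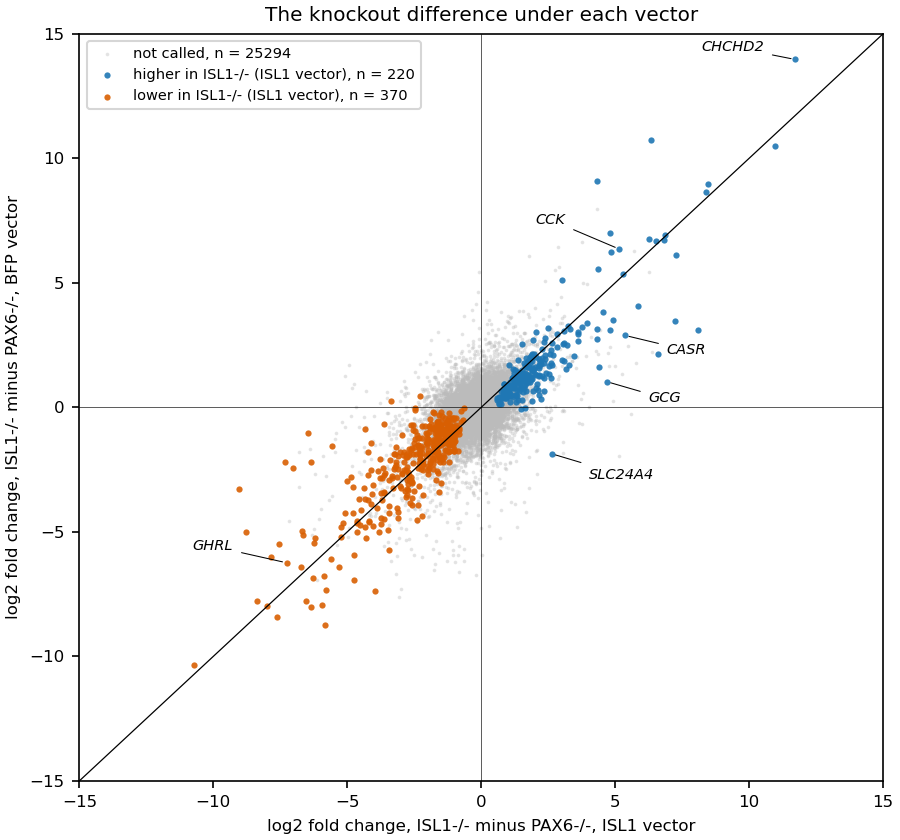
Log2 fold change of each gene (ISL1-/- minus PAX6-/-) under the ISL1 vector (x axis) and under the BFP vector (y axis), with the line of equal values. Most coloured points, the 590 genes called under the ISL1 vector, have the same sign on both axes (585 genes), GCG lies at 1.03 on the y axis, and SLC24A4 is above 0 on the x axis and below 0 on the y axis.

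WT with ISL1 gave each of the 590 genes a level for reference. Of the 220 genes higher in ISL1-/- its mean log2 CPM was nearer to ISL1-/- for 134 and to PAX6-/- for the rest, and of the 370 lower genes it was nearer to ISL1-/- for 179. Without PAX6-/- replicate 3 these counts were 126 and 153. The same counts were not made over all genes tested, so they are not read as a trait of the called genes. Among genes named above, CCK, GIP, CAT and FFAR1 had WT beside or beyond ISL1-/-, GHRL, HELT and SV2C had WT beside ISL1-/- at a low level, and TSPYL5, ZNF585A and TF had WT at the level of PAX6-/-. CHCHD2 and NGFR had WT at or near the level of PAX6-/-, with ISL1-/- alone high.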

How the data were processed

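RNA was measured in BFP-positive cells of 21 libraries in 8 groups, using a SMART-Seq v4 kit for cDNA and a KAPA EvoPrep kit for libraries, per the labels' protocols. The authors deposited raw read counts per gene for all libraries. STAR 2.7.11b, featureCounts 2.1.1 and GRCh38 are named in the submitters' processing notes. The annotation release, strand setting and handling of multi-mapped reads are not given in the sources used here. One entry, for ANK2, is broken over 3 lines and was left out, which leaves 62699 of 62700 genes.

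Genes with enough counts by filterByExpr of edgeR 4.0.16 in R 4.3.3 (minimum count 10, minimum total count 15) were tested, 25884 in all. Libraries were scaled by TMM, and 1 quasi-likelihood model over 21 libraries in 8 groups gave each comparison, with Benjamini-Hochberg adjustment over all genes tested and a threshold of 0.05. The common biological coefficient of variation was 0.334. The standard error is the size of the log2 fold change divided by the square root of F. CPM are counts per 1 M (1e6) of the TMM-scaled library, with a prior count of 0.125 in fold changes and 2 in plotted log2 CPM. A count floor of 3 was used for genes at 0, and such bounds cover counting error only. The test was also run on simulated data with known changes, and the outcome of that run is not reported here. Alternatives used limma 3.58.1 (voom with quality weights), DESeq2 1.42.0, other scalings and filters, a replicate block, and fits that left out libraries.

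Named were ISL1, PAX6 and PDX1, the islet hormones, the 10 genes with the largest rise and the 10 with the largest fall among calls that held without PAX6-/- replicate 3, did not overlap and averaged at least 10 CPM in the higher group, up to 4 called members of each list with the largest change, and up to 5 genes of the vector change. Members beyond these, such as calls past the 4 of a list and members that did not pass, were chosen after their values were seen. The members and lists were chosen with earlier results of these data known. Promoters came from RefSeq (GRCh38.p14) and were matched by symbol. Single values of some list members are not reported here.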

Additional observations from a re-analysis of the deposited data

Results flagged for a closer look

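The difference between the knockouts in SLC24A4 was not the same under the 2 vectors, by a test of the difference itself. The log2 fold change (ISL1-/- minus PAX6-/-) was 2.63 with the ISL1 vector and -1.87 with BFP, a change of 4.49 between the vector groups (edgeR's quasi-likelihood test, adjusted p 0.00422). With the ISL1 vector SLC24A4 was higher in 3 of 3 ISL1-/- libraries. The change remained past the threshold with each of the 12 libraries left out in turn, at 3.82 to 4.81 and an adjusted p of up to 0.0391. The BFP difference alone was lost without ISL1-/- with BFP replicate 2 or 3 or PAX6-/- with BFP replicate 1 (adjusted p up to 0.0986). WT with ISL1 had 10.9 CPM ± 2.7 (SD, n = 2).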

How the results depend on the processing

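The number of genes called differed between settings. Under the ISL1 vector the 590 genes became 265 to 980 with 1 compared library left out, 1113 without PDX1-/- with ISL1 replicate 4, 1396 without that library and PAX6-/- replicate 3, 102 in a fit of only the 6 libraries, 2762 with voom quality weights and 1203 with DESeq2. A fit of only the compared libraries without PAX6-/- replicate 3, chosen after seeing the data, called 1546 (772 higher and 774 lower). Under BFP the 636 became 351 to 525 with 1 compared library left out, 928 without PAX6-/- with ISL1 replicate 3, and 1058, 2385, 1613, 3222 and 1066 under the same 5 settings as first listed. The vector change became 1 to 2 genes with 1 library left out, 2 without PDX1-/- replicate 4, 5 without both libraries, 2 in only the compared libraries (5 after dropping PAX6-/- replicate 3, added later), 2 with no filter, 13 with voom and 3 with DESeq2. The causes were not tested. Upper quartile scaling moved the median of all genes to -0.20 from -0.06, and called 637. Among the named genes and list members, 4 not called in the report were called with the opposite sign: CRYBA2 at 0.84 without both libraries (-0.61 to 0.84 over fits that left libraries out), 0.82 in the added setting and 0.77 with voom, NEUROD1 at 0.67 (added) and 0.56 (voom), GAPDH at 0.39 without both (-0.35 to 0.39) and 0.36 (added), and SDF2L1 at 0.44 (-0.35 to 0.44) and 0.42.

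A replicate block called 1341 genes under the ISL1 vector and 1271 under BFP (99 and 2303 in only the compared libraries), and 2 for the vector change in both fits. In only the compared libraries it lost SIX3, NPTX2 and OAS1 (adjusted p 0.0709, 0.0714 and 0.0645), which the other settings kept. Whether the numbers pair the samples is not settled by the check made here. Under the ISL1 vector, deviations of same-numbered libraries correlated at 0.166, 0.012 and 0.105, and those of differently numbered libraries at -0.155 to 0.017. As a hint from the data only, 5 of 6 libraries correlated best with their own number.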

Other observations

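The genes in this section were chosen after their values were seen. Of 24 HOX genes tested, which give cells their position along the body axis, 4 were lower in ISL1-/- and 0 higher (3 and 0 without PAX6-/- replicate 3), where 1.43% of all genes were lower, with a median log2 fold change of -1.10 (-0.97 without it). Under BFP 4 were lower and 1 higher, HOXB13 (3.26, adjusted p 0.0419). HOXB2 had 7.32, 8.28 and 10.5 CPM in ISL1-/- and 36.7, 29.5 and 184 CPM in PAX6-/- (-3.26, adjusted p 0.00645), and HOXB3 had a fold change of -2.90 (adjusted p 0.00493). Both were kept with each compared library left out by edgeR's quasi-likelihood test. HOXD1 (-3.02, adjusted p 0.00842) was lost without ISL1-/- replicate 1 or 3 (up to 0.0656), and HOXA4 (-1.34, adjusted p 0.0347) without any ISL1-/- library or PAX6-/- replicate 3 (up to 0.19). Of 6 IRX genes, another homeodomain family, 2 were higher and 0 lower (0.85% of all genes were higher), while IRX1 (-0.54) and IRX2 (-0.59) did not pass. IRX3 had 74.5, 70.6 and 80.7 CPM in ISL1-/- and 15.6, 16.1 and 15.4 CPM in PAX6-/- (2.26, adjusted p 7.53e-05). IRX5 had 30.9, 25.7 and 25.7 CPM against 8.15, 6.68 and 8.14 CPM (1.84, adjusted p 7.77e-05). In both the libraries of a knockout lay close together, replicate 3 included.

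Other genes that respond to or act in interferon signalling were higher in ISL1-/- too. The transcription factor gene IRF7 had 50.3, 48.6 and 59.7 CPM in ISL1-/- and 21, 22.3 and 20.5 CPM in PAX6-/- (1.31, adjusted p 0.000388), kept with each compared library left out. IRF8 (2.20, adjusted p 0.0169) was lost without ISL1-/- replicate 1 or 2 or PAX6-/- replicate 1 (up to 0.0696). Among receptors and ligands of nerve growth, the neurotrophin receptor gene NTRK3 was higher beside NGFR, at 5.77, 5.07 and 5.85 CPM against 1.49, 1.5 and 1.11 CPM (2.02, adjusted p 0.000962). The receptor gene GFRA3 was lower, at 5.12, 5.65 and 8.63 CPM against 25.5, 20.1 and 84.9 CPM (-2.75, adjusted p 0.00573). ARTN, which encodes its ligand artemin, was higher (1.66, adjusted p 0.021), a call lost without ISL1-/- replicate 3 or PAX6-/- replicate 1 or 2 (up to 0.107).

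ZNF585B, the near-identical neighbour of ZNF585A, went the other way from it, with 6.62, 5.49 and 6.61 CPM in ISL1-/- and 1.11, 1.13 and 2.33 CPM in PAX6-/- (2.04, adjusted p 0.00168). How reads shared by the pair were counted is not given in the sources used here, so both values are uncertain. The imprinted gene NNAT had 158, 158 and 168 CPM in ISL1-/- and 442, 350 and 1609 CPM in PAX6-/- (-2.31, adjusted p 0.00556, and -1.30 without replicate 3). LINC02899, a long non-coding RNA, had 0 counts in all 3 ISL1-/- libraries and 3.22, 3.22 and 5.91 CPM in PAX6-/-, which makes it at least 77.6-fold lower in ISL1-/- against a floor of 3 counts per library.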
